A study of Mus musculus with 6 samples.

Results

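Lymphoid fate in the bone marrow is set by a small group of DNA-binding proteins, and 10 of their genes are described here in haematopoietic progenitors of haloperidol-treated mice. They are the chromatin organiser gene Satb1, the E protein genes Tcf3, Tcf4 and Tcf12, the Ikaros family genes Ikzf1 and Ikzf3, the B lineage genes Ebf1 and Pax5, and the TCF genes Tcf7 and Lef1. The members form a list of named genes, and all 10 were found among the 38926 genes of the deposited table. Of these, 6 reached a mean of 1 FPKM (fragments counted on a gene, scaled for its length and the depth of the library) over the 6 libraries and were tested together with 11436 genes in all. The other 4, Ikzf3, Ebf1, Pax5 and Lef1, lay below that level and are described by their values.

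RNA was sequenced from sorted LSK cells, a marrow fraction without lineage markers but with Sca-1 and Kit on the surface, which holds stem cells and multipotent progenitors. Wild-type C57BL/6 mice of 8 to 12 weeks received haloperidol, a dopamine receptor blocker used as an antipsychotic, or its vehicle DMSO by injection for 3 days in a row. The same agent stayed with the cells during the sort, after crushed femur and tibia had been digested with collagenase. There were 3 DMSO and 3 haloperidol libraries. Whether each came from a separate mouse, and whether the groups were handled on separate days, is not given, so p-values speak only of the spread among these samples, which may be technical. Treatment and any batch that split the same way cannot be told apart.

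E proteins are basic helix-loop-helix factors that bind E-box sequences as dimers and switch on lymphoid genes. Id proteins, which lack the DNA-binding part, hold them in inactive pairs. Ikaros proteins are zinc finger factors that work with the NuRD chromatin remodeller, and SATB1 folds chromatin and is known to mark lymphoid-primed progenitors. Ebf1 and Pax5 act later, in committed B cell precursors, while Tcf7 and Lef1 encode HMG-box factors that are best known in early T cells and can pair with beta-catenin.

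Depth was even, with 8536625 to 8982181 gene reads per library by recovery from the steps of the FPKM values. The gate genes were high in both groups. Kit was at 87.8 ± 7.38 and 81.0 ± 9.78 FPKM in DMSO and haloperidol (mean ± SD, n = 3 each). The Sca-1 gene Ly6a was at 136 ± 10.2 and 138 ± 10.5 FPKM. Of genes listed for mature lymphocytes, Cd3e reached at most 0.0809 FPKM in any library, Ms4a1 at most 0.218 FPKM, and Cd8a was at 0 throughout. Others had higher group means. The highest of the T lineage list were Lat, at 38.2 and 29.5 FPKM in DMSO and haloperidol, and Lck, at 25.8 and 17.7 FPKM. Cd4 was at 1.20 and 1.51 FPKM in DMSO and haloperidol, Cd5 at 1.56 and 0.641 FPKM and Cd6 at 1.55 and 1.02 FPKM. The plasma cell gene Jchain was at 2.92 and 3.93 FPKM. The immunoglobulin light chain gene Igkc was present, at 47.6, 1.43 and 22.7 FPKM in DMSO and at 47.1, 52.6 and 154 FPKM in haloperidol. Transcripts of mature erythroid and neutrophil cells were present in both groups, and 0 of the 8 tested genes of each list passed the limma test, in which a gene is said to rise or fall at an adjusted p under 0.05. With no low-value filter the count was also 0 in each list. Hbb-bs was at 1489 ± 188 and 1904 ± 265 FPKM, Hba-a2 at 1212 ± 198 and 1335 ± 298 FPKM and Hba-a1 at 983 ± 212 and 1034 ± 142 FPKM. S100a8 was at 72.3 ± 21.5 and 95.4 ± 23.7 FPKM, S100a9 at 60.6 ± 13.2 and 78.3 ± 18.7 FPKM and Ngp at 33.4 ± 12.7 and 36.9 ± 12.2 FPKM. The log2 fold change was above 0 for 7 of the 8 erythroid and 5 of the 8 neutrophil genes, and for 5769 of all 11436 genes tested.

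Of the 6 tested members, 3 fell with haloperidol, namely Satb1, Tcf4 and Tcf7. None rose at an adjusted p under 0.05 in the limma test with Benjamini-Hochberg adjustment, and 1, Tcf3, was higher at an unadjusted p under 0.05. By a second method, limma voom on recovered reads, 0 rose as well. Among all genes tested 24.5% passed, 13.0% falling and 11.5% rising. The median log2 fold change of the tested members was -0.31, beside 0.00216 over all genes tested. Tcf7 passed the filter only through its DMSO level, so the count of members that fell includes 1 gene that had to be higher in DMSO to be tested.

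**Figure D1:**
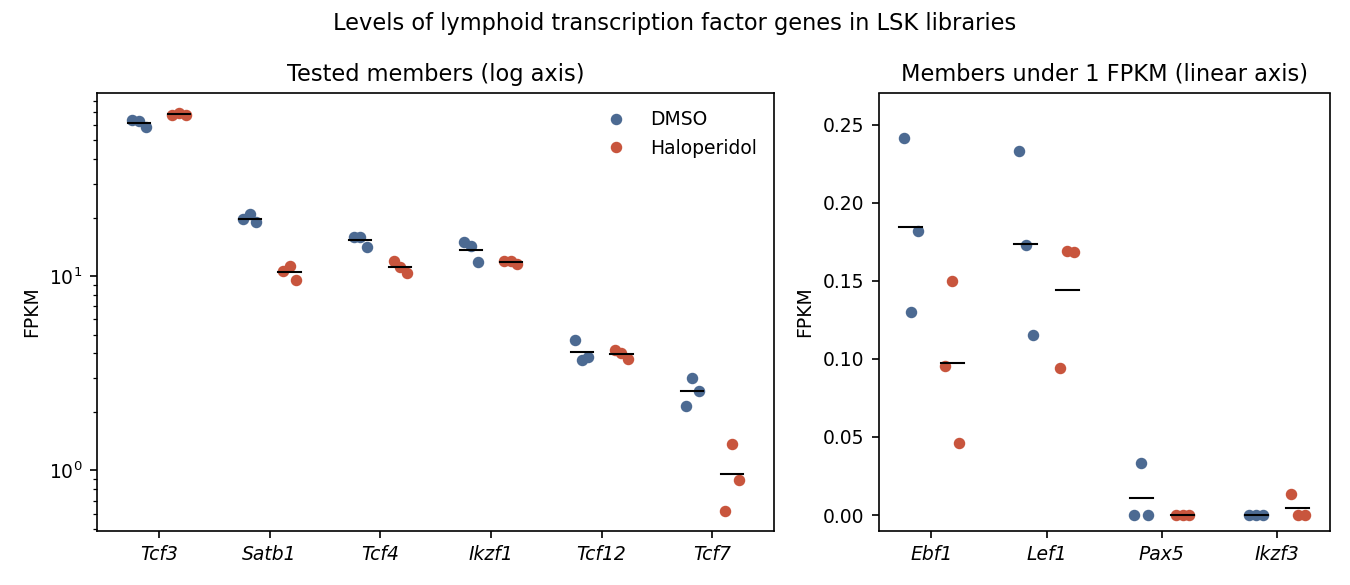
FPKM of the 10 members in each library, with DMSO in blue, haloperidol in red and black bars at group means (n = 3); the left axis is logarithmic and the right axis linear. In the left panel the groups do not overlap for Satb1, Tcf4 and Tcf7, lower with haloperidol, or for Tcf3, higher with it, and every point in the right panel lies under 0.25 FPKM.

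Satb1 (chromosome 17, 51736187 to 51833290, minus strand, GENCODE M21 on mm10) was at 19.6, 20.8 and 18.9 FPKM in DMSO replicates 1, 2 and 3. With haloperidol it was at 10.7, 11.2 and 9.58 FPKM. Every haloperidol library lay below every DMSO library, as was the case for 22.1% of genes tested, and the mean fell by 47.0%. The log2 fold change, on the scale of log2(FPKM + 1) as for all fold changes here, was -0.86 (SE 0.07, 95% interval -1.03 to -0.69, limma adjusted p = 2.08e-04). These values rest on 1075 to 2276 reads per library, and the spread between replicates (4.73% of the mean in DMSO and 8.02% in haloperidol) was wider than the 2.13% and 2.93% that counting alone gives. The call held in all 19 settings run, with an adjusted p of at most 0.00231.

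To show the DNA next to the Satb1 start, the 250 bases before its most upstream RefSeq start are printed beside those of Tcf3, a member that did not fall. For Tcf3 only 238 of the 250 bases are shown and searched, those that also lie before the GENCODE start. Both are 5′ to 3′ on the minus strand (RefSeq, GRCm38.p6), at chr17:51833291-51833540 for Satb1 and chr10:80433648-80433885 for Tcf3. Capitals mark matches on either strand to 3 motifs: the E-box CANNTG, the Ikaros core GGGAA, and the TCF/LEF core CTTTGA or CTTTGT.
Satb1: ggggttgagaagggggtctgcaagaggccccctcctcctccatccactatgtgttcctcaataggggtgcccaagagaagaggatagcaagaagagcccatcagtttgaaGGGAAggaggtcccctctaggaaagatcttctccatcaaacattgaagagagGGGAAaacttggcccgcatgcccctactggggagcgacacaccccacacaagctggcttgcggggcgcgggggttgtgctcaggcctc
Tcf3: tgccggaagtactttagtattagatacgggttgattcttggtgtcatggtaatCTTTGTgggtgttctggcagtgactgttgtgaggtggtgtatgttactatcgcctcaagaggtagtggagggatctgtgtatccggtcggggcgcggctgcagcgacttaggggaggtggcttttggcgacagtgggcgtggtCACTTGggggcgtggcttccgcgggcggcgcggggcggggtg
The Satb1 window held 2 Ikaros cores and no other match. In the Tcf3 window there were 1 E-box and 1 TCF/LEF core. Tcf3 had 1 RefSeq start, but Satb1 had 5. Of the 5 Satb1 windows, 2 held an E-box, 4 an Ikaros core and 2 a TCF/LEF core. Over all 32851 RefSeq windows of 250 bases, 66.2% held an E-box, 56.2% an Ikaros core and 27.6% a TCF/LEF core. RefSeq listed 20 starts for 8 of the 10 members, and 12 of those windows held an E-box, 10 an Ikaros core and 8 a TCF/LEF core. A match is a run of letters and not a measured binding site. Ikzf3 and Tcf4 had no entry.

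Tcf3, which encodes the E2A proteins E12 and E47, was the most abundant member in both groups (chromosome 10, 80409514 to 80433647). Its level was 63.6, 63.3 and 58.3 FPKM in the DMSO libraries. In the haloperidol libraries it was 67.6, 68.9 and 67.6 FPKM. All 3 haloperidol values were above all DMSO values, as was the case in one direction or the other for 43.1% of genes tested. The difference did not pass the test (log2 fold change 0.14, SE 0.05, 95% interval 0.02 to 0.26, limma adjusted p = 0.0826), and it did not pass in any of the 19 settings.

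Tcf4, which encodes E2-2, the E protein best known for plasmacytoid dendritic cells, went the other way (chromosome 18, 69343356 to 69689079). DMSO libraries held 15.9, 15.9 and 14.1 FPKM. Haloperidol libraries held 11.9, 11.1 and 10.4 FPKM. The groups did not overlap, and the mean fell by 27.3% (log2 fold change -0.43, SE 0.08, 95% interval -0.60 to -0.25, limma adjusted p = 0.00537). An adjusted p of 0.0258 was the highest of its 19 settings.

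Tcf12, which encodes HEB, the E protein with known roles in T cell development, was at 4.69, 3.71 and 3.86 FPKM in DMSO (chromosome 9, 71842688 to 72111871). Haloperidol libraries gave 4.19, 4.03 and 3.74 FPKM. The groups overlapped, with a log2 fold change of -0.03 whose 95% interval ran from -0.26 to 0.21 (limma adjusted p = 0.881).

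Because the 3 E proteins can dimerise with one another, their shares of the summed E protein FPKM were set side by side as a description. The level of these shares depends on gene length: the length behind the deposited Tcf4 values was 12250 bases, where the GENCODE M21 exons cover 27382. Tcf4 made up 18.9, 19.2 and 18.5% of that sum in DMSO and 14.2, 13.2 and 12.7% with haloperidol. Tcf3 made up 75.5, 76.4 and 76.4% and then 80.8, 82.0 and 82.7%. Summed E protein FPKM was 81.1 ± 4.23 without and 83.2 ± 1.28 with the drug (n = 3 each). The share of Tcf4 was lower, and that of Tcf3 higher, in every haloperidol library than in any DMSO library, while the share of Tcf12 was 5.03 ± 0.545% and 4.79 ± 0.216%.

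The inhibitors of E proteins rose. All 3 tested Id genes were higher with haloperidol, where 11.5% of all genes tested were. Id1 was at 44.8, 41.3 and 43.5 FPKM in DMSO and at 69.1, 70.0 and 86.2 FPKM in haloperidol (log2 fold change 0.78, SE 0.09, limma adjusted p = 5.85e-04). Id3, which restrains E proteins in lymphocytes, went from 60.7 ± 3.38 to 90.4 ± 9.34 FPKM. Id2, known for its role in innate lymphoid and dendritic cells, went from 10.4 ± 0.606 to 15.1 ± 1.98 FPKM. Id4 stayed under the filter at 0.768 ± 0.130 and 0.865 ± 0.265 FPKM. The ratio of summed E protein to summed Id FPKM was 0.735, 0.707 and 0.674 in DMSO and 0.503, 0.486 and 0.398 in haloperidol. Haloperidol replicate 3 had the lowest ratio, and leaving out any 1 library kept the difference of the log2 ratio between -0.68 and -0.51.

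**Figure D2:**
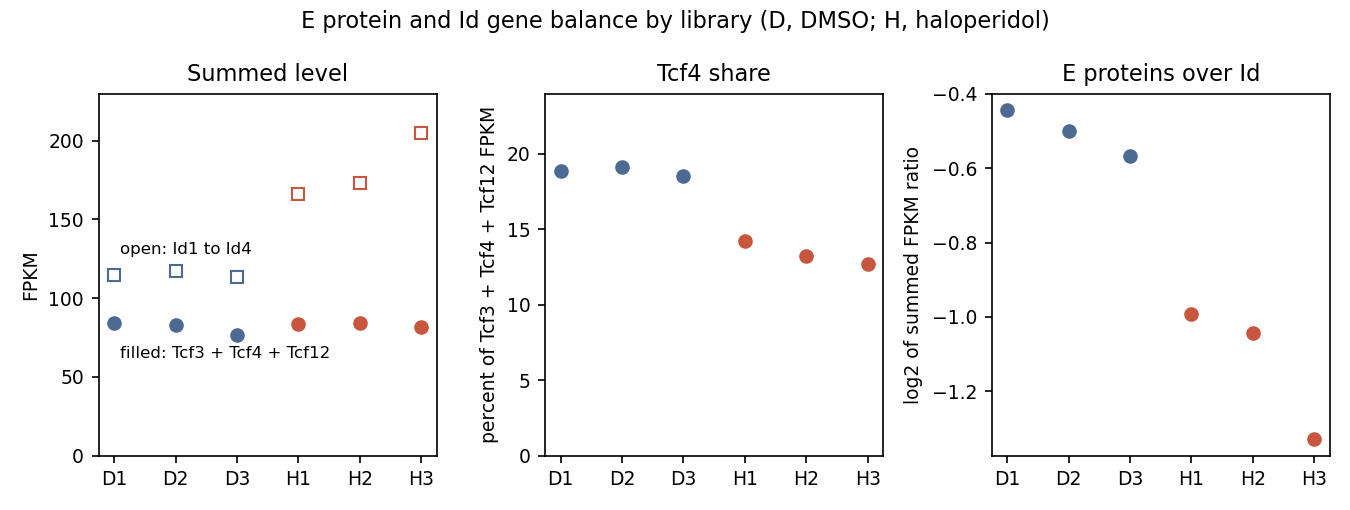
Summed FPKM of the E protein genes (filled) and Id genes (open), the share of Tcf4 in the E protein sum in percent, and the log2 ratio of the sums, for DMSO (D) and haloperidol (H) libraries 1 to 3. The E protein sum lies between 76.3 and 84.2 FPKM in all libraries, while the Id sum is between 113 and 117 FPKM in DMSO and between 166 and 205 FPKM in haloperidol.

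Of the 7 tested partners and corepressors of E proteins, 3 fell and 1 rose, where 13.0% and 11.5% of all genes tested did. Cbfa2t3, which encodes the corepressor ETO2, was at 21.2, 18.0 and 16.6 FPKM in DMSO and at 6.65, 5.61 and 6.39 FPKM in haloperidol (log2 fold change -1.44, SE 0.10, limma adjusted p = 7.36e-05). Lmo2, a LIM adaptor found in complexes with TAL1 and E proteins in progenitors, fell from 478 ± 10.4 to 323 ± 10.5 FPKM, and Tal1 itself from 7.55 ± 1.34 to 4.81 ± 0.248 FPKM. Lmo4 rose from 5.70 ± 1.29 to 8.46 ± 1.10 FPKM, but the call was lost when low genes were kept in (limma adjusted p = 0.109). It was also lost without DMSO replicate 2 or 3 or haloperidol replicate 1 or 3 (adjusted p of 0.0856, 0.0908, 0.111 and 0.0787). Lyl1, a relative of TAL1, was at 8.20 ± 1.32 and 6.55 ± 0.370 FPKM and Ldb1 at 38.9 ± 3.95 and 35.6 ± 2.38 FPKM, neither past the threshold.

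**Figure D3:**
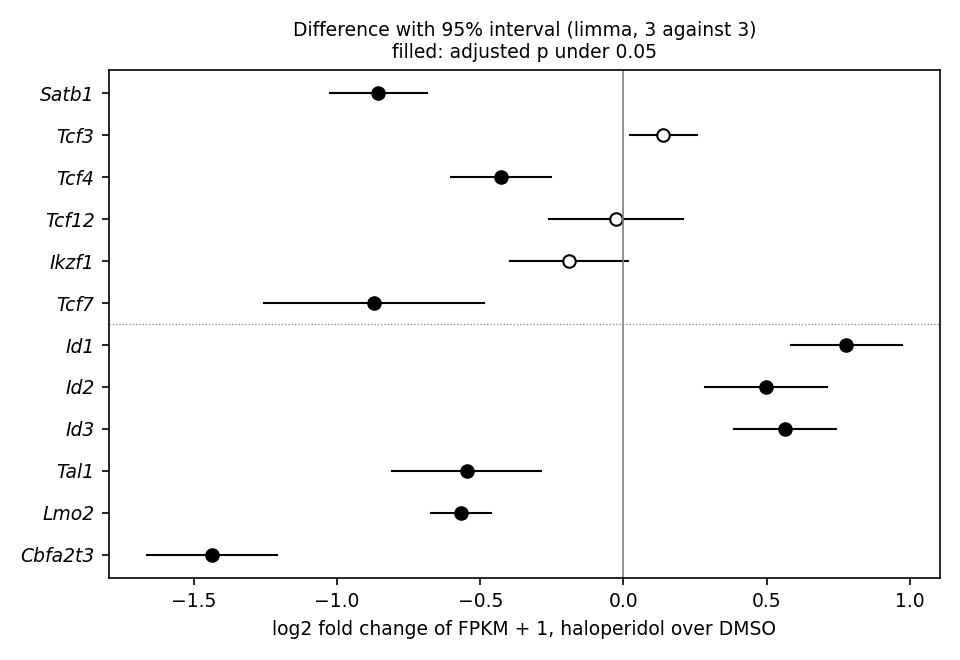
Log2 fold change of FPKM + 1, haloperidol over DMSO, with 95% intervals from limma (3 against 3) for the 6 tested members above the dotted line and for Id genes and E protein partners below it; filled points passed an adjusted p under 0.05. Satb1, Tcf4 and Tcf7 lie left of 0 and Id1, Id2 and Id3 right of it.

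Ikzf1, which encodes Ikaros, a factor needed for lymphoid priming, was at 15.1, 14.3 and 11.8 FPKM in DMSO (chromosome 11, 11685003 to 11772926). With haloperidol it was at 11.9, 12.0 and 11.6 FPKM. DMSO replicate 3 lay among the haloperidol values, and the difference did not pass (log2 fold change -0.19, SE 0.09, 95% interval -0.40 to 0.01, limma adjusted p = 0.157). Without DMSO replicate 3 it passed, with a log2 fold change of -0.29 and an adjusted p of 0.0293, and it passed in 1 of the 19 settings. The spread between DMSO replicates was 12.6% of the mean, where counting alone gives 3.77%.

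Ikzf3, which encodes Aiolos of later B and T cells, had no reads in DMSO and 1 read in haloperidol replicate 1 (chromosome 11, 98464902 to 98546031). Its expression was not detectable at this depth, where 3 counts, the limit that a count of 0 allows, stand for 0.0380 to 0.0398 FPKM. The other family members Ikzf2 (Helios) and Ikzf5 (Pegasus) were at 1.91 ± 0.158 and 1.69 ± 0.050 FPKM and at 5.71 ± 0.0671 and 6.02 ± 0.0237 FPKM, and neither passed the test. Of the 13 NuRD subunit genes, all tested, 1 fell and 1 rose, a smaller share than the 13.0% and 11.5% of all genes, with a median log2 fold change of -0.00423. Hdac1, a histone deacetylase, fell from 62.1 ± 0.671 to 54.5 ± 1.31 FPKM, and the scaffold gene Gatad2a rose from 26.0 ± 2.80 to 31.1 ± 0.785 FPKM. The call for Gatad2a ended in 8 of 18 alternatives and that for Hdac1 in 4 of 18.

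Tcf7, which encodes TCF1, is on chromosome 11, 52252371 to 52283014. It was at 2.14, 2.98 and 2.58 FPKM in DMSO. Haloperidol libraries held 0.620, 1.37 and 0.898 FPKM. All haloperidol values were below all DMSO values, and the mean fell by 62.5%, the largest relative drop of the 6 tested members. Tcf7 passed the filter only through its DMSO level, which favours a drop, so its separation is not set against the share of all genes tested. The reads behind Tcf7 were few, 50 to 68 per DMSO library and 14 to 32 per haloperidol library. Summed over each group there were 179 and 67 reads, a scaled ratio of 0.377 with an exact 95% binomial interval of 0.281 to 0.502, which covers counting error only. The log2 fold change was -0.87 (SE 0.17, 95% interval -1.26 to -0.49, limma adjusted p = 0.00743). A pseudocount of 1 compresses a gene this low, and with 0.01 the log2 fold change was -1.46 (adjusted p = 0.0106). With no filter on low values the adjusted p was 0.0316.

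Lef1, the partner family member of Tcf7, did not pass the filter (chromosome 3, 131110471 to 131224356). It gave 18, 13 and 9 reads in DMSO and 7, 13 and 13 reads in haloperidol, that is 0.233, 0.173 and 0.115 FPKM against 0.0940, 0.169 and 0.169 FPKM. The groups overlapped, and the scaled read ratio of 0.832 had a 95% interval of 0.508 to 1.35. Tcf7l2, another TCF gene, was at 3.91 ± 0.269 and 3.23 ± 0.384 FPKM (limma adjusted p = 0.163). Of 10 tested coactivators and Groucho corepressors of TCF proteins, 2 rose and 0 fell, close to the shares of all genes tested (11.5% and 13.0%). They were Tle6, a Groucho family gene, from 9.40 ± 0.804 to 12.0 ± 0.685 FPKM, and Ctnnbip1, an inhibitor of beta-catenin, from 5.24 ± 0.234 to 6.77 ± 0.717 FPKM. With no filter on low values 0 of them rose. Among 8 feedback targets of the Wnt pathway, 7 stayed under 0.5 FPKM in every library, Axin2 and Lgr5 included.

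The B lineage factors were close to the limit of detection. Ebf1, which specifies the B lineage, gave 21, 11 and 16 reads in DMSO and 8, 13 and 4 reads in haloperidol (chromosome 11, 44617317 to 45008091). In FPKM these were 0.241, 0.130 and 0.182 against 0.0953, 0.150 and 0.0460, and the groups overlapped through haloperidol replicate 2. The scaled read ratio was 0.525 with a counting interval of 0.310 to 0.869, but the difference did not pass in either fit that included the gene (limma adjusted p = 0.313 with no filter and 0.133 with voom on recovered reads). Pax5, which locks in B cell identity, was listed at 0.0336 FPKM in DMSO replicate 2 and at 0 in the other 5 libraries (chromosome 4, 44524757 to 44710487). Reads were recovered up to a factor shared by all libraries of a gene, which 1 value above 0 does not fix, so the number of reads behind that value is not given.

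The order of the members by FPKM, a scale that allows for gene length, differed between the groups. It rests on the lengths behind the deposited values, which for Satb1 (12603 bases), Tcf4 (12250) and Lef1 (8654) were shorter than the GENCODE M21 exons (19027, 27382 and 8788), so the places of Satb1 and Tcf4 against other genes are uncertain. Differences between groups within a gene do not depend on its length in this way. In DMSO the order was Tcf3, Satb1, Tcf4, Ikzf1, Tcf12 and Tcf7, followed by Ebf1 and Lef1. Of these neighbours, Tcf4 and Ikzf1 overlapped, as did Ebf1 and Lef1. In haloperidol Satb1 stood behind Ikzf1 and Tcf4, and the ranges of Ikzf1 and Tcf4 and of Tcf4 and Satb1 overlapped.

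Over the 6 libraries the profile of log2(FPKM + 1) most like that of Satb1 among the members was that of Tcf4 (Pearson r = 0.97), and that of Tcf7 was also nearest to Satb1 (r = 0.93). Tcf3 had its lowest r with Satb1, at -0.81. Predicted genes with Gm or Rik names were left out of the next ranking. Of the other genes tested, the 4 nearest to Satb1 were Traf4, Sqle, Slco4a1 and Klf12, with an r of 0.999, 0.998, 0.998 and 0.997. Traf4 went from 22.9 ± 0.985 to 13.7 ± 0.719 FPKM. These coefficients are descriptions over 6 libraries in 2 groups, and the group difference is a large part of what the points share.

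Among 22 tested transcription factor genes of lymphoid development outside the 10 members, 7 fell and 2 rose, with a median log2 fold change of -0.15. Of all genes tested 13.0% fell and 11.5% rose, so the share that rose was not above that of all genes. With no filter on low values, 5 of 31 fell and 2 rose, and of all 20633 genes in that fit 5.36% fell. Among those that fell in the main test, the call for Gfi1 ended in 8 of 18 alternatives and that for Tox in 6 of 17. Myb, a regulator of progenitors and early lymphocytes, fell from 138 ± 8.59 to 80.7 ± 7.37 FPKM. Bcl11a, needed for B cell and plasmacytoid dendritic cell development, fell from 8.70 ± 0.370 to 5.23 ± 0.332 FPKM. Sox4 fell from 145 ± 5.59 to 102 ± 14.4 FPKM and Zeb2 from 4.35 ± 0.350 to 2.24 ± 0.255 FPKM. In the other direction, the repressor gene Bcl6 rose from 1.96 ± 0.406 to 5.17 ± 0.208 FPKM, and Foxo1, which acts with E2A and EBF1 in B cell precursors, from 6.60 ± 0.619 to 9.44 ± 0.721 FPKM.

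**Figure D4:**
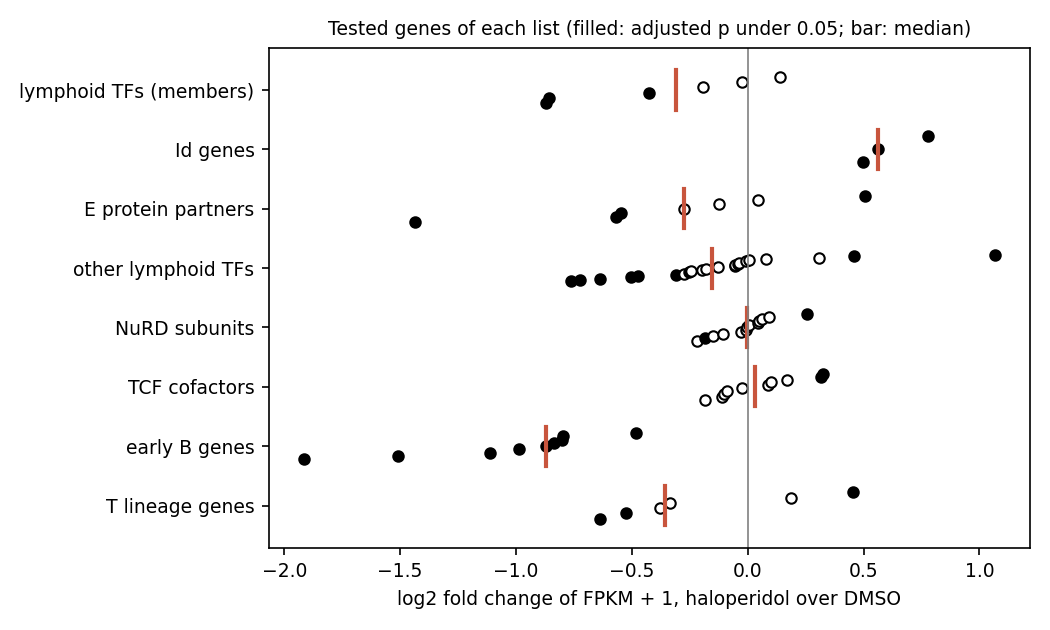
Log2 fold change of FPKM + 1, haloperidol over DMSO, for each tested gene of 8 lists; points are genes, filled where the adjusted p was under 0.05, and red bars are list medians. The Id genes lie right of 0, all tested early B genes lie left of it, and NuRD subunits sit around it. Of the 9 early B genes shown, 6 passed the filter on low values only through their DMSO level.

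Genes that E proteins, EBF1 and PAX5 are known to switch on in B cell precursors were lower with haloperidol. All 9 tested of 15 listed fell, with a median log2 fold change of -0.87, but 6 of the 9 had a haloperidol mean under 1 FPKM and passed the filter only through DMSO. Without DMSO replicate 2 the count was 5, in part because fewer of these genes then reached the filter. With no filter on low values, 10 of 15 fell, where 5.36% of 20633 genes did. The 3 genes above the filter in both groups were Dntt, Cd79b and Ly6d. Dntt, the terminal transferase of lymphoid progenitors, was at 324, 373 and 312 FPKM in DMSO and at 184, 227 and 171 FPKM in haloperidol. Cd79b, which encodes the Ig-beta subunit of that receptor complex on B cells, was at 31.2, 33.4 and 31.9 FPKM and then at 21.4, 23.3 and 23.7 FPKM. Ly6d was at 11.7, 11.8 and 9.63 FPKM and then at 2.35, 2.44 and 1.79 FPKM. Every haloperidol library was below every DMSO library for Dntt, Cd79b and Ly6d, as for 22.1% of genes tested. Rag2, part of the antigen receptor recombinase, was at 2.0, 2.76 and 2.33 FPKM and then at 0.170, 0.263 and 0.0984 FPKM. It is among the 6 that passed the filter only through DMSO, so its separation is not set against that share. In bulk RNA, fewer cells of a type and less RNA per cell cannot be told apart, for these genes as for Satb1, Tcf4 and Tcf7.

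**Figure D5:**
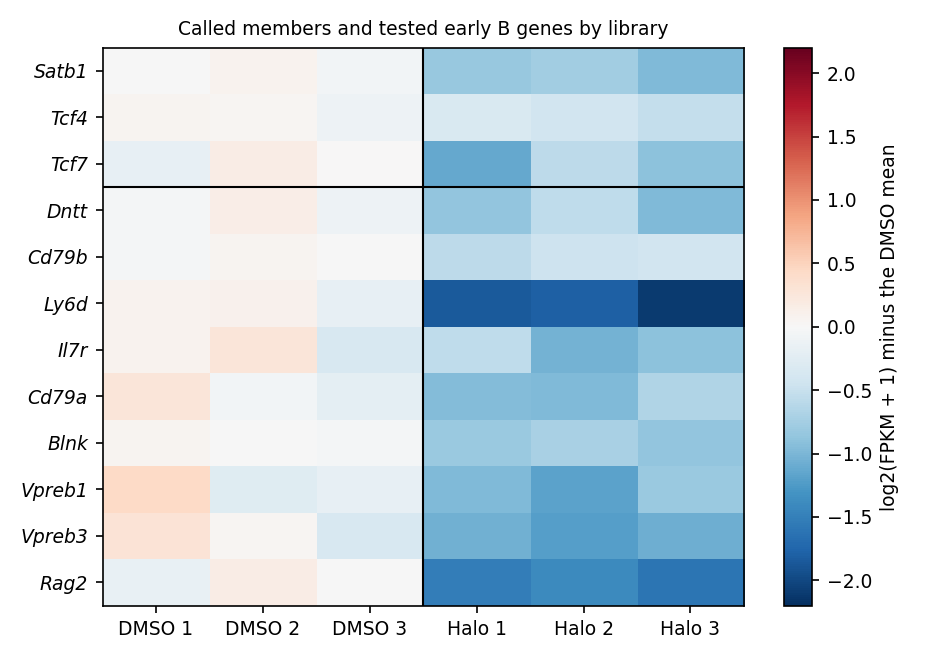
Log2(FPKM + 1) minus the DMSO mean of each gene, by library, for the 3 members that fell (above the line) and the 9 tested early B genes. All 3 haloperidol columns are below the DMSO mean in every row, with Ly6d and Rag2 the deepest. Tcf7 and 6 of the early B genes, Rag2 included, passed the filter on low values only through their DMSO level.

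Markers of mature lymphoid, dendritic and other cells were read beside these results. Of 9 mature B and plasma cell genes in the table, 4 stayed under 0.5 FPKM in every library, and their summed level ran from 17.2 to 72.5 FPKM in DMSO and from 53.5 to 166 FPKM in haloperidol. Igkc made up most of the sum in all libraries except DMSO replicate 2, and the only gene of the 4 tested that passed was Sdc1, a plasma cell surface proteoglycan, which fell from 13.5 ± 0.945 to 3.73 ± 0.674 FPKM. Of 10 plasmacytoid dendritic cell genes, 5 stayed under 0.5 FPKM, the defining gene Siglech among them, and the sum ran from 44.9 to 52.2 FPKM and from 42.6 to 48.0 FPKM. Others of that list were well above this level. Irf7 was at 18.0 ± 2.08 and 20.1 ± 1.04 FPKM and Cox6a2 at 15.0 ± 4.28 and 12.5 ± 3.43 FPKM. Runx2 was at 8.09 ± 0.552 and 8.90 ± 0.360 FPKM, and none of these passed the threshold. Summed natural killer and innate lymphoid genes ran from 315 to 335 FPKM and from 275 to 322 FPKM, and 0 of 3 tested passed. Nkg7 made up most of that sum, at 318 ± 11.4 and 296 ± 22.6 FPKM, so the sum says little of the others. Klrd1 went from 1.61 ± 0.292 to 0.744 ± 0.460 FPKM and Prf1 from 1.15 ± 0.341 to 2.24 ± 0.806 FPKM, neither past the threshold. For the T lineage list, 7 of 15 genes stayed under 0.5 FPKM, Cd3d, Cd3e and Cd3g included. The part of other cell types in the differences of the members was not tested.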

How the data were processed

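The submitters' processing notes name mm10 as the build, TopHat2 2.1.1 and HTSeq 0.6.1, and also DESeq2 1.18.1 and bcl2fastq 2.19.1.403. Neither annotation release nor counting options were stated there. The library kits named in the labels' protocols keep no strand. The authors deposited FPKM values, 1 column per library. Whole reads were recovered for 100.0% of the 20633 genes above 0, within 0.01 reads and up to a factor shared by a gene's libraries, and used for depth, read counts and the voom alternative. The gene length implied by the values equalled the GENCODE M21 exon length for 51.2% of these genes. Genes with a mean of at least 1 FPKM entered a two-sided limma test (version 3.58.1, R 4.3.3) of log2(FPKM + 1), with a trended prior variance, without covariates, and with Benjamini-Hochberg adjustment over all of them at a threshold of 0.05. Exact permutation of 3 against 3 cannot go below p = 0.1 and was not used. The members, gene lists and tests were chosen with earlier results of these data known. All members are named, with up to 6 genes of smallest p per pathway list, up to 3 of highest mean FPKM per list of other cells, Kit and Ly6a, and the nearest profiles; other genes were named after their values were seen. Listed symbols not in the table were looked up through RefSeq synonyms. Other settings comprised pseudocounts, filters, scalings, weights, a replicate block, leaving out each library and voom.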

Additional observations from a re-analysis of the deposited data

How the results depend on the processing

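The count of members that fell was 3 under every setting except a filter at a mean of 5 FPKM (2, as Tcf7 was then not tested) and without DMSO replicate 3 (4, with Ikzf1). No member rose in any setting. The count of all genes called was 2807, and between 1814 and 2160 when 1 library was left out, the lowest being without DMSO replicate 2. Satb1 and Tcf4 kept their calls in 19 settings and Tcf7 in 18. The sign of the uncalled Tcf12 difference turned to 0.0156 with sample quality weights; leaving out 1 library it ran from -0.0779 (without DMSO replicate 2) to 0.0583 (without DMSO replicate 1), and was 0.0109 without haloperidol replicate 3. Of the early B genes, 9 fell. The count was 3 with a filter at 5 FPKM and 5 without DMSO replicate 2, and fewer were tested in both settings. Same-numbered libraries did not deviate together (r of 0.00946, 0.0550 and 0.0195), so the numbers were not taken as pairs; with a replicate block 3 members fell, 0 rose and 2552 genes were called in all. The planned count-model tests (edgeR, DESeq2) were not run; limma voom on recovered reads was used in their place, a choice made after seeing the data. Few reads limit what can be said of Ebf1, Lef1, Pax5 and Ikzf3.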

Other observations

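Of 6 tested T lineage genes, 2 fell and 1 rose, where 13.0% and 11.5% of all genes tested did. Lck, a Src family kinase, went from 25.8 ± 0.827 to 17.7 ± 0.825 FPKM, and Cd5, a receptor that dampens antigen signalling, from 1.56 ± 0.257 to 0.641 ± 0.0869 FPKM (n = 3 each). Cd7, a surface protein of early lymphoid cells, rose from 2.55 ± 0.185 to 3.88 ± 0.462 FPKM, a call not kept with no filter on low values. Among 5 tested genes of the plasmacytoid dendritic cell list, 1 fell. It was Ccr9, a chemokine receptor also found on lymphoid progenitors, at 3.71, 3.98 and 3.17 FPKM in DMSO and 0.715, 1.38 and 0.786 FPKM in haloperidol (named after its values were seen). Cd5 and Ccr9 passed the filter on low values only through their DMSO level.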
